A study of Arabidopsis thaliana with 27 samples.

Results

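The GASA genes encode small secreted peptides that are named for their regulation by gibberellin (GA), and 9 of them were followed here among the 27313 genes quantified in Arabidopsis thaliana root tips. The 9 genes were taken from a list of loci: AT1G75750 (GASA1), AT5G15230 (GASA4), AT3G02885 (GASA5), AT1G74670 (GASA6), AT1G22690 (GASA9), AT5G59845 (GASA10), AT2G30810 (GASA12), AT3G10185 (GASA13) and AT5G14920 (GASA14). For each locus the values of all its transcripts were summed. RefSeq gives the names of GASA1, GASA4, GASA5, GASA6 and GASA14, while the other 4 names come with the list.

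Each library came from root tips pooled from seedlings aged 5 d of wild-type Col-0 or of a line that carried pG1090::XVE ≫ ΔMP or pG1090::XVE ≫ AXR3-1. The constitutive promoter pG1090 drives the chimeric factor XVE, which starts transcription of the transgene when estradiol is present. AXR3-1 is the auxin repressor IAA17 in a degradation-resistant form, and ΔMP is a form of the activator ARF5/MP that Aux/IAA proteins no longer repress. Whole seedlings of each line received DMSO for 90 min (mock) or 2.5 μM estradiol for 90 or 180 min before the roots were harvested. This gave 9 groups of 3 libraries named A, B and C. Both transgenic lines carry their transgene in the mock as well, and Col-0 carries none. No 180 min mock was among the samples, so time differed along with estradiol wherever 180 min is set against a mock, and Col-0 served as the control for time and estradiol.

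GA is perceived by the GID1 receptors, which bring about the destruction of the DELLA repressors and so release growth. Many GASA genes respond to GA, some by rising and some by falling, and their peptides act in the cell wall and in redox balance during cell division and elongation. In roots, GA promotes the elongation of cells as they leave the meristem, while the GA2OX enzymes deactivate the hormone. The question here was whether GASA transcripts changed in roots in which a repressor (AXR3-1) or an activator (ΔMP) of auxin-responsive genes had been induced.

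The coding sequences show what ties the family together. In 7 of the 9 genes the last coding exon was 182 bases long (RefSeq, TAIR10.1), a length found in 62 of the 21331 Arabidopsis genes with more than 1 coding exon (0.291%). The last coding exon was 188 bases in GASA10 and 185 bases in GASA14. It held 12 cysteine codons in each of the 8 members whose RefSeq model matched the quantified transcript (all but GASA13), and the stretches between them were 3, 3, 8, 3, 2, 0, 2, 1, 11, 1 and 12 codons. GASA10 and GASA14 each departed from this spacing by 1 codon at 1 place. The last coding exons of the members on which the results turn are shown for this pattern, each read 5′ to 3′ on the coding strand with the cysteine codons in capitals. GASA1 lies on the minus strand of chromosome 1 (chr1:28441813-28441994), GASA4 on the plus strand of chromosome 5 (chr5:4945844-4946025), GASA14 on the plus strand of chromosome 5 (chr5:4827577-4827761) and GASA5 on the minus strand of chromosome 3 (chr3:638323-638504).
GASA1: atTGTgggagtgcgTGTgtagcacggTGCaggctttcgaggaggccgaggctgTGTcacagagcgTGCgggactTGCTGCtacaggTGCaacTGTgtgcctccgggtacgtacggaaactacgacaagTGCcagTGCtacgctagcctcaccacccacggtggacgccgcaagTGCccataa
GASA4: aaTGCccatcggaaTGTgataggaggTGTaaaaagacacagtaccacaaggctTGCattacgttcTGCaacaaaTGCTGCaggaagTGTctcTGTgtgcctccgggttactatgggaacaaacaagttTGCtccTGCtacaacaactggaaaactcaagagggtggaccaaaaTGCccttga
GASA14: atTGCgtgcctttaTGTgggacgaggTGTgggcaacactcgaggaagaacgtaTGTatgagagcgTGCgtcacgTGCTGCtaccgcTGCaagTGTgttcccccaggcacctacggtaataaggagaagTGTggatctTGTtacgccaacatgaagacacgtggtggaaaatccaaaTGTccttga
GASA5: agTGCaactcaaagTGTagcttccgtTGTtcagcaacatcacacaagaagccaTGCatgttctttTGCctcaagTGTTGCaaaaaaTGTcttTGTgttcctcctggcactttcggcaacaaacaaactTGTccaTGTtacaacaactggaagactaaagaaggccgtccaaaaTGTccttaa

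The exons had diverged in sequence, with identity taken over the whole exon, cysteine codons included. Among the 6 members with a 182-base exon in the matched models, identity ranged from 46.2% (GASA1 and GASA5) to 71.4% (GASA5 and GASA6), and it was 49.5% between GASA1 and GASA4. No 31-base word of any member's coding sequence occurred in another gene. The 250 bases before the annotated start of the gene held neither auxin response elements (TGTCTC, in 10.9% of 27443 promoters, or TGTCGG, in 4.16%) nor the GA response letters TAACAAA (16.1%) or TAACGTA (2.62%), searched on both strands, in any member but GASA9. GASA9 had 1 match to TGTCTC and 1 to TAACAAA. These are matches of letters in a short window and do not bear on binding.

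The members fell into abundant, low and hardly detected genes. Levels are given in TPM, the share of all transcripts after division by effective length, scaled to the same total in every library. Over all 27 libraries GASA1 averaged 1188 TPM (range 1010 to 1406) and GASA4 905 TPM (600 to 1160), which placed them at median ranks of 73 and 133 among 27313 genes. Together they held 96.8% to 98.2% of the summed TPM of the 9 members. Such comparisons between genes depend on effective length, which was 110 to 140 bases for GASA1 and 526 to 618 bases for GASA14. In read pairs over all libraries GASA1 had 127888, GASA4 102856 and GASA14 22416, a smaller gap than in TPM. GASA14 followed with 45.1 TPM (31.9 to 55.5), then GASA10 with 5.26 TPM (2.54 to 7.81) and GASA5 with 4.46 TPM (0.93 to 8.92). GASA1 exceeded GASA4 in 25 of 27 libraries, and GASA14 stood apart from the genes above and below it in every library. GASA10 and GASA5 could not be ordered, since GASA10 was the higher in 15 of 27 libraries.

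GASA6, which promotes seed germination and cell elongation, reached at most 1.23 TPM, with 40 read pairs in all, spread over 18 libraries. GASA9 had 3 read pairs, all in ΔMP at 180 min, library C. GASA12 and GASA13 had none among 577987447 read pairs, which allows a level of up to 3 read pairs in that total. These 4 genes did not pass the filter on low counts, so 5 of the 9 members were tested.

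**Figure D1:**
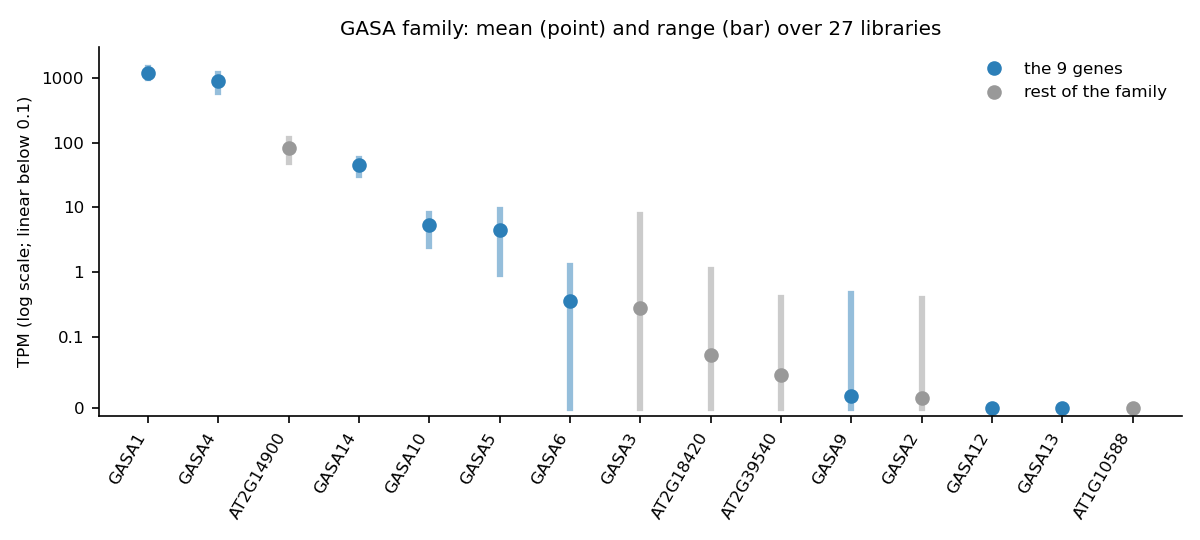
Level of the 9 genes (blue) and of the rest of the family (gray) in TPM on a log axis that is linear below 0.1; points are means and bars the lowest and highest of 27 libraries. GASA1 and GASA4 average 1188 and 905 TPM, while GASA12, GASA13 and AT1G10588 are at 0 in every library.

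The libraries held 13634037 to 34272503 assigned read pairs. IAA17 rose from a mean of 142 TPM in the AXR3-1 mock to 1185 and 2538 TPM at 90 and 180 min, and MP in ΔMP from 9.20 TPM (mock) to 928 and 1395 TPM, in both cases as the sum of native gene and transgene, which cannot be told apart. All 7 lists of tissue markers were detected, which include root cap, root hair, endodermis and meristem. AXR3-1 at 90 min, library A, stood apart: it held 81.3 TPM of the seed storage gene SESA1 against at most 0.27 TPM in any other library. The calls that involve AXR3-1 at 90 min are therefore also given without it. In these bulk samples, fewer cells of a type and less RNA per cell cannot be told apart.

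The first question was whether time or estradiol alone moved the GASA genes. In Col-0 none of the 5 tested members passed the test (edgeR's quasi-likelihood test, adjusted p of at most 0.05 over 19530 genes), at 90 min against mock, at 180 min against mock or at 180 against 90 min. Of all genes, 2.94%, 6.31% and 5.64% passed in these comparisons. Over these 15 values no unadjusted p was below 0.05 either, and DESeq2 passed none. Limma on log2(TPM + 0.5) passed none either, with 2 members at an unadjusted p below 0.05 at 180 against 90 min. The lowest adjusted p was 0.265, for GASA5 at 180 min, which stood at 7.22, 6.64 and 4.37 TPM in the mock and at 2.70, 3.39 and 4.59 TPM at 180 min (log2 fold change −0.79, SE 0.40). GASA1 and GASA4 stayed within 0.09 of 0 on the log2 scale in these comparisons (SE 0.08 to 0.09).

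Induction of AXR3-1 was followed by a fall of GASA4, a GA-induced gene expressed in meristems. GASA4 stood at 909, 882 and 920 TPM in the AXR3-1 mock, at 781, 810 and 886 TPM at 90 min, and at 672, 665 and 600 TPM at 180 min. Every 180 min library lay below every 90 min library, and the 90 min libraries overlapped with the mock by 1 library only. At 180 min GASA4 fell by 0.50 on the log2 scale (SE 0.08, adjusted p = 2.56e-05, edgeR's quasi-likelihood test), a loss of 29.2%.

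At 90 min GASA4 did not pass, with a log2 fold change of −0.24 (SE 0.08, adjusted p = 0.0825), or −0.23 (adjusted p = 0.23) without library A. No member passed at 90 min, against 5.85% of all genes; 1 member had an unadjusted p below 0.05, also with DESeq2, where none passed, and 2 did with limma, where none passed. Without library A the log2 fold changes at 90 min were −0.04 for GASA1, −0.76 for GASA5, −0.27 for GASA10 and −0.02 for GASA14, and none passed. From 90 to 180 min GASA4 fell by 0.26 (SE 0.08, adjusted p = 0.0311), or by 0.27 (adjusted p = 0.0496) without library A. That step was lost without AXR3-1 at 90 min C (adjusted p = 0.169), at 180 min B (0.0649) or at 180 min C (0.165), whereas the fall from the mock held without any single library (−0.56 to −0.44).

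At 180 min of AXR3-1, 3 of the 5 tested members passed, 2 lower and 1 higher, against 19.5% of all genes. GASA5, which acts against GA in flowering and stem growth, had the largest fold change of the 3 in size and the largest SE. It stood at 4.31, 4.58 and 6.36 TPM in the mock and at 2.38, 3.38 and 0.93 TPM at 180 min, from 63 and 26 read pairs over 3 libraries. The groups did not overlap, and the log2 fold change was −1.21 (SE 0.41, adjusted p = 0.0351). It was the only value of a tested member at least 1 in size in a comparison of estradiol with mock, which 2.63% of all genes reached together with the test. The call was lost without mock B (adjusted p = 0.0606), mock C (0.156), 180 min A (0.0683) or 180 min C (0.191). GASA5 had also been low in Col-0 at 180 min, and the AXR3-1 response minus that of Col-0 was −0.42 (SE 0.58, adjusted p = 0.772).

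GASA14, which has a role in leaf expansion and stress tolerance, moved the other way in AXR3-1. Its libraries stood at 45.0, 40.3 and 45.4 TPM in the mock, 42.0, 49.1 and 43.1 TPM at 90 min, and 55.1, 45.9 and 52.9 TPM at 180 min. Every 180 min library lay above every mock library, though the closest were 45.9 and 45.4 TPM. The log2 fold change was 0.27 at 180 min (SE 0.10, adjusted p = 0.0479) and 0.33 from 90 to 180 min (SE 0.10, adjusted p = 0.0159). The rise from the mock was lost without TMM scaling (adjusted p = 0.11), with limma on log2(TPM + 0.5) (0.142), and without mock A (0.133), mock B (0.164), 180 min A (0.357) or 180 min C (0.0759). The step from 90 to 180 min was lost with the same limma fit (0.234), with an offset for effective length (0.0565), without 90 min A (0.0848) and without 180 min A (0.179). From 90 to 180 min, 2 of the 5 members passed (GASA4 and GASA14), against 17.2% of all genes.

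**Figure D2:**
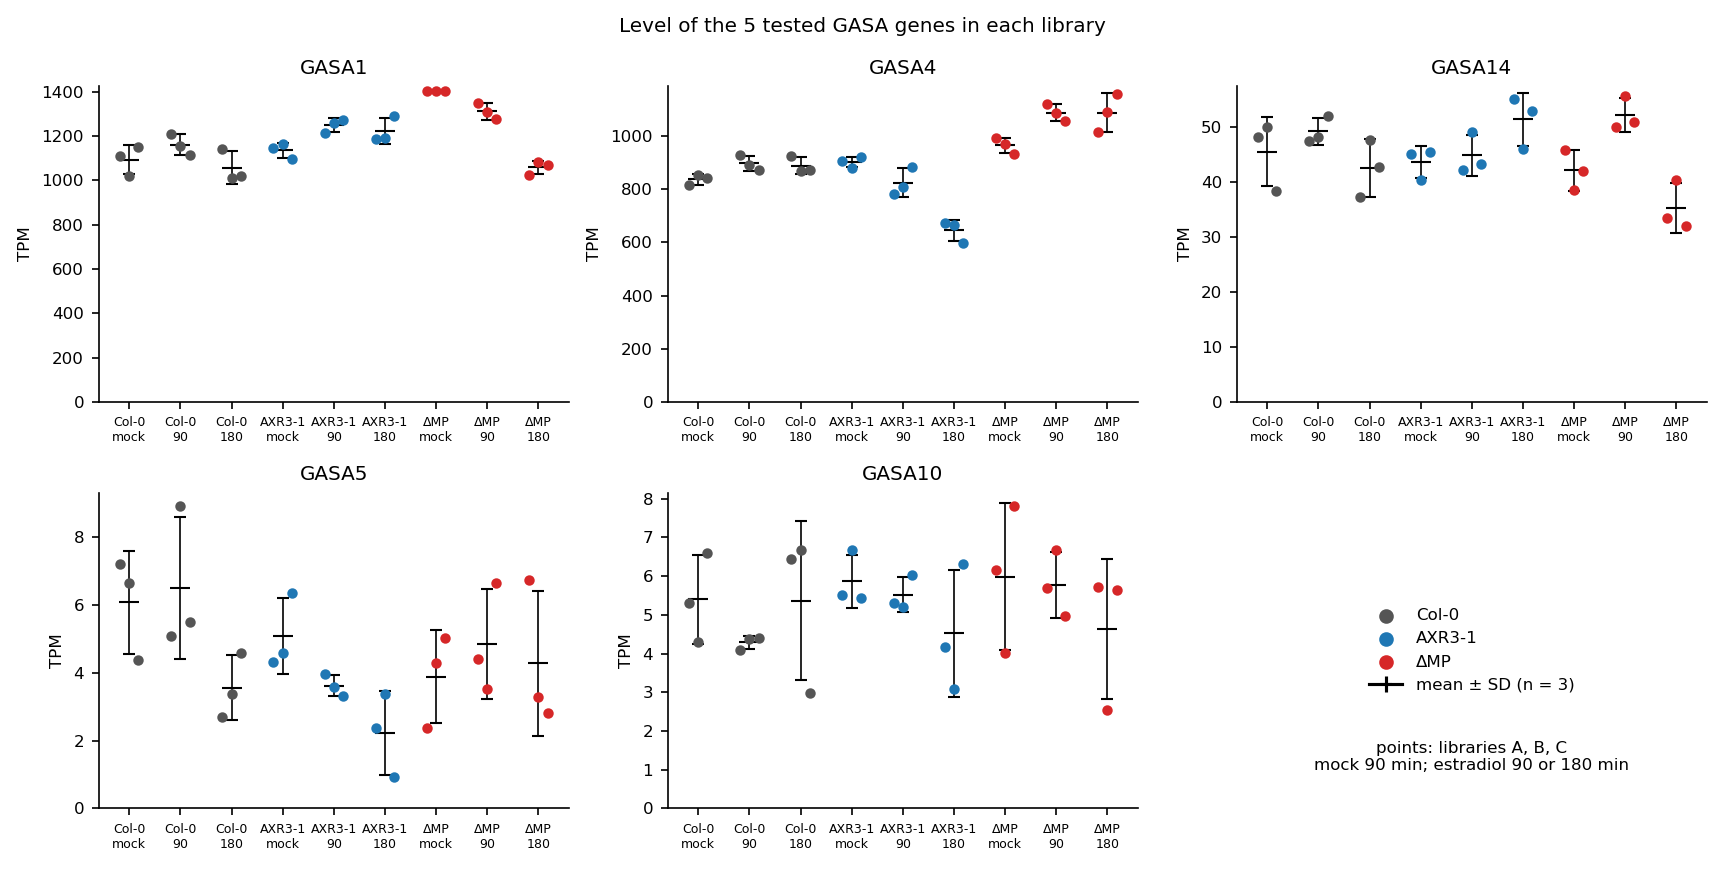
TPM of the 5 tested genes in each library (points, colored by line), with the mean ± SD of 3 libraries, in mock and after 90 or 180 min of estradiol. GASA4 drops to 600 to 672 TPM in AXR3-1 at 180 min, and GASA1 drops from 1402 to 1406 TPM in the ΔMP mock to 1025 to 1083 TPM at 180 min.

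GASA1 did not pass the test in AXR3-1 at either time. Its libraries stood at 1146, 1163 and 1099 TPM in the mock, 1214, 1258 and 1275 TPM at 90 min and 1185, 1193 and 1289 TPM at 180 min. The TPM of both estradiol groups lay above the mock, but the fitted counts gave log2 fold changes of −0.05 at 90 min and 0.04 at 180 min (SE 0.08 each, adjusted p = 0.851 and 0.81). With the effective length of the transcript as an offset these became 0.12 and 0.13 (adjusted p = 0.209 and 0.0923). The effective length that Salmon assigned to GASA1 ranged from 110 to 140 bases over the libraries, so the direction of so small a difference depended on the unit.

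Induction of ΔMP was followed by a fall of GASA1 and by a small rise of GASA4 at 180 min. These 2 of the 5 tested members passed, against 24.8% of all genes. GASA1 stood at 1403, 1402 and 1406 TPM in the ΔMP mock, at 1352, 1307 and 1277 TPM at 90 min, and at 1025, 1083 and 1070 TPM at 180 min. The groups of libraries did not overlap. At 180 min GASA1 fell by 0.35 on the log2 scale (SE 0.08, adjusted p = 0.00165), a loss of 21.8%, and from 90 to 180 min by 0.26 (SE 0.08, adjusted p = 0.0246). The fall from the mock held without any single library (−0.43 to −0.29). The step from 90 to 180 min was lost without 90 min A (adjusted p = 0.16), 180 min A (0.0518) or 180 min B (0.16).

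The ΔMP mock was itself high in GASA1. The Col-0 mock held 1112, 1022 and 1149 TPM, all below the ΔMP mock, and the log2 difference was 0.32 (SE 0.08, adjusted p = 0.0254), the 1 member of 5 that passed against 3.82% of all genes. Without Col-0 mock A, Col-0 mock B, ΔMP mock A or ΔMP mock C the adjusted p was 0.153, 0.0654, 0.0662 and 0.127. After 180 min of estradiol the ΔMP libraries (1025 to 1083 TPM) lay within the range of all Col-0 libraries (1010 to 1212 TPM). In the AXR3-1 mock no member passed against the Col-0 mock, where 2.05% of all genes passed; 1 member (GASA4) had an unadjusted p below 0.05, also with DESeq2, and none passed with DESeq2. The 5 green tissue markers also summed higher in the ΔMP mock (66.8 to 70.9 TPM) than in the Col-0 mock (41.3 to 50.6 TPM), with 1 of 4 tested rising and none of the 5 at 0 in all libraries. Their part in the GASA1 difference was not tested.

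GASA4 stood at 992, 971 and 934 TPM in the ΔMP mock, 1123, 1088 and 1057 TPM at 90 min, and 1015, 1091 and 1160 TPM at 180 min. Each estradiol library exceeded each mock library. The log2 fold change was 0.20 at 90 min (SE 0.08, adjusted p = 0.219) and 0.22 at 180 min (SE 0.08, adjusted p = 0.0473). The call at 180 min was lost without TMM scaling (adjusted p = 0.0539), without the filter on low counts (0.0567), and without mock A (0.0782), mock B (0.139), mock C (0.11), 180 min A (0.0833) or 180 min C (0.403, log2 fold change 0.11).

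In ΔMP, GASA14 passed the test only in the step from 90 to 180 min. It stood at 45.7, 38.4 and 41.9 TPM in the mock, 49.9, 55.5 and 50.8 TPM at 90 min and 33.5, 40.3 and 31.9 TPM at 180 min. Every 90 min library lay above every mock and every 180 min library, and the 180 min libraries overlapped with the mock. The log2 fold change from the mock was 0.29 at 90 min (SE 0.09, adjusted p = 0.0808) and −0.23 at 180 min (SE 0.10, adjusted p = 0.0865). Both passed in a fit of only the libraries compared (adjusted p = 0.00745 and 0.0107) and with the effective length offset (0.0363 and 0.044). The value at 180 min also passed without the filter on low counts (0.0477) and without mock B (0.0422). From 90 to 180 min GASA14 fell by 0.53 (SE 0.10, adjusted p = 8.55e-05), a value that held without any single library (−0.57 to −0.48). In that step 2 of the 5 members passed (GASA1 and GASA14, both lower), against 21.3% of all genes. All 4 tested green tissue markers fell in the same step (median log2 fold change −0.53), and the 5 summed to 66.8 to 70.9 TPM in the mock, 85.4 to 88.9 TPM at 90 min and 56.0 to 56.3 TPM at 180 min. Of the 4 root hair markers 3 rose in this step, from a sum of 102 to 118 TPM to one of 179 to 182 TPM, and 1 of 3 root cap markers fell. The part of these shifts in the GASA1 and GASA14 values was not tested. At 90 min against mock none passed, against 4.03% of all genes; GASA4 and GASA14 had an unadjusted p below 0.05, also with DESeq2, where none passed.

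**Figure D3:**
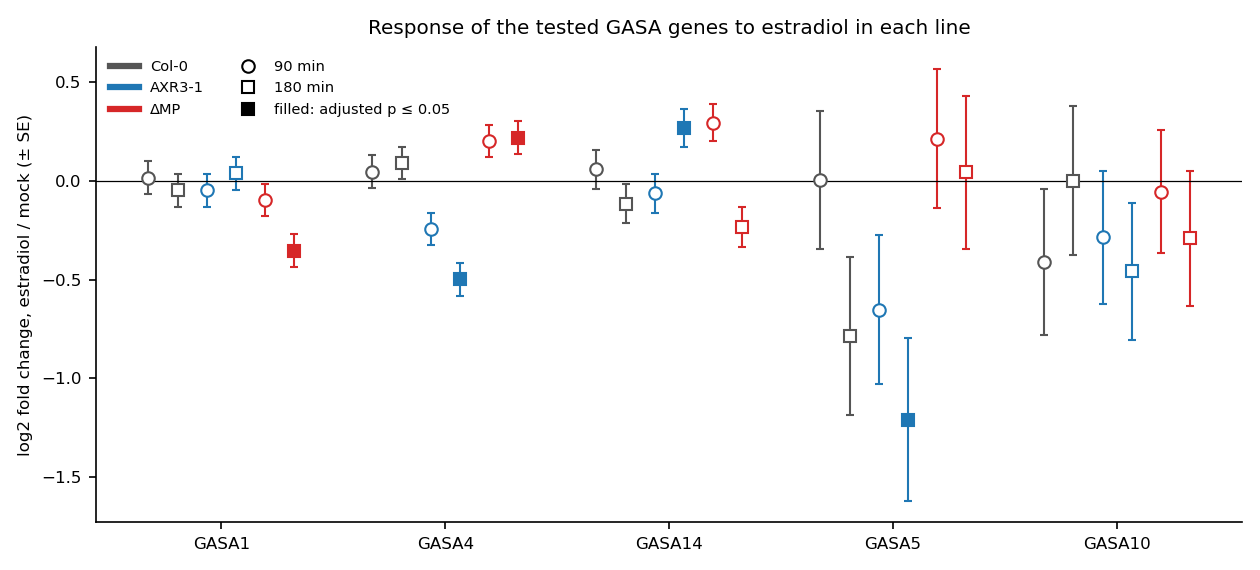
Log2 fold change of estradiol over mock (± SE) for the 5 tested genes in each line at 90 min (circles) and 180 min (squares); filled symbols have an adjusted p of at most 0.05. GASA4 lies at −0.50 in AXR3-1 and at 0.22 in ΔMP at 180 min, and GASA1 at −0.35 in ΔMP.

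Whether a line responded differently from Col-0 was tested on the difference of the responses. For AXR3-1 at 180 min GASA4 alone passed, 1 of 5 against 10.9% of all genes, with a difference of −0.59 (SE 0.12, adjusted p = 0.000521) that held without any single library. GASA14 differed by 0.38 (SE 0.14, adjusted p = 0.0791), and it passed without Col-0 mock C (0.0084), Col-0 180 min B (0.0235) or AXR3-1 180 min B (0.0273). At 90 min no member passed against 1.38% of all genes; GASA4 differed by −0.29 (SE 0.12, adjusted p = 0.311, or 0.415 without library A) and was the only one with an unadjusted p below 0.05, and DESeq2 passed none.

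For ΔMP no member passed relative to Col-0 at 90 min (1.45% of all genes) or at 180 min (10.1%). GASA1 came closest at 180 min, with a difference of −0.31 (SE 0.12, adjusted p = 0.117). It passed with the effective length offset (−0.36, adjusted p = 0.000771), with limma on log2(TPM + 0.5) (adjusted p = 0.0016), and without Col-0 180 min C (0.0339) or ΔMP 180 min C (0.0484). GASA4 differed by 0.13 (SE 0.12, adjusted p = 0.634). Unadjusted, no member at 90 min and 1 at 180 min had a p below 0.05, also with DESeq2, where none passed. With limma 1 member had an unadjusted p below 0.05 at 90 min, and none passed.

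The contrast between ΔMP and AXR3-1 was the widest. At 180 min the responses of 3 of the 5 members differed, against 21.2% of all genes. GASA4 was higher by 0.72 in the ΔMP response than in that of AXR3-1 (SE 0.12, adjusted p = 1.11e-05), GASA1 was lower (−0.39, SE 0.12, adjusted p = 0.0141) and GASA14 was lower (−0.50, SE 0.14, adjusted p = 0.00687). GASA5 had the largest difference, 1.25 (SE 0.57), but did not pass (adjusted p = 0.129, edgeR's quasi-likelihood test). Unadjusted, 4 members had a p below 0.05, also with DESeq2. The values of GASA4 and GASA14 held without any single library, while that of GASA1 was lost without ΔMP 180 min B (adjusted p = 0.0562). At 90 min GASA4 was the 1 member that passed, against 5.03% of all genes, with a difference of 0.45 (SE 0.12, adjusted p = 0.0157). Without AXR3-1 at 90 min A this was 0.43 (adjusted p = 0.0432), and it was lost without AXR3-1 mock C (0.0534), AXR3-1 90 min B (0.057) or ΔMP 90 min A (0.0635).

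Root hair and root cap markers moved in the same libraries. The 4 root hair markers (RSL4, EXPA7, EXPA18 and COBL9) summed to 104 to 124 TPM in the AXR3-1 mock and 45.1 to 55.1 TPM at 180 min, with 3 of 4 lower. In ΔMP they summed to 115 to 133 TPM in the mock and 179 to 182 TPM at 180 min, with 3 of 4 higher. The 3 root cap markers fell from 37.7 to 39.2 TPM in the ΔMP mock to 25.2 to 27.8 TPM at 180 min, with 2 of 3 lower, while in AXR3-1 at 180 min 1 of the 3 rose and 2 fell. No marker of either list was at 0 throughout. At 180 min against mock, 12.7% of all genes rose and 12.1% fell in ΔMP, while 10.6% rose and 8.88% fell in AXR3-1. Of the other lists at 180 min in ΔMP, 2 of 4 endodermis markers and 1 of 4 tested green tissue markers fell and 1 of 3 meristem markers rose. In AXR3-1 1 of 4 green tissue markers rose and no endodermis or meristem marker passed. No marker of vascular or dividing cells passed in either line. The part of these shifts in the values of GASA4, GASA1 and GASA14 was not tested.

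GASA4 and GASA1 are close in level, and their ratio within a library is free of library scaling. The ratio also moves when a single gene of the pair changes, so it does not show opposite changes. In AXR3-1 GASA1 did not pass at either time, and the GASA4 rise in ΔMP at 180 min was lost under several settings. The ratio of GASA4 to GASA1 in TPM was 0.69 ± 0.02 (SD, n = 3) in the ΔMP mock, and estradiol brought it to 0.83 ± 0.002 (90 min) and 1.03 ± 0.05 (180 min). The AXR3-1 mock had a ratio of 0.80 ± 0.04, against 0.66 ± 0.03 after 90 min and 0.53 ± 0.06 after 180 min. In both lines the 3 groups of libraries did not overlap. Without AXR3-1 90 min A, the ratios at 90 min were 0.644 and 0.694. In Col-0 it was 0.77 ± 0.06, 0.77 ± 0.01 and 0.84 ± 0.03, and the mock overlapped with both estradiol groups, while the 180 min libraries (0.81 to 0.86) lay above the 90 min libraries (0.77 to 0.78). The ratio of the estimated counts ran the same way, at 0.69 to 0.74, 0.88 to 0.90 and 1.04 to 1.11 in ΔMP and 0.76 to 0.85, 0.69 to 0.73 and 0.52 to 0.58 in AXR3-1. In Col-0 the count ratios were 0.77 to 0.85, 0.79 to 0.84 and 0.84 to 0.92, each group overlapping with the next. GASA4 exceeded GASA1 only in ΔMP at 180 min, in libraries B and C by TPM and in all 3 by counts.

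**Figure D4:**
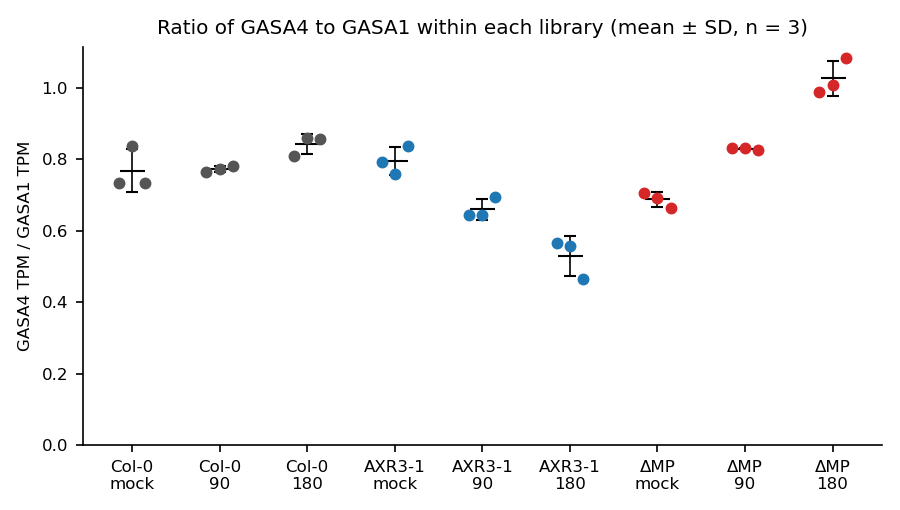
Ratio of GASA4 TPM to GASA1 TPM in each library (points) with the mean ± SD of 3 libraries, by line and treatment. The mean ratio climbs from 0.69 to 1.03 in ΔMP and drops from 0.80 to 0.53 in AXR3-1, while Col-0 lies between 0.77 and 0.84.

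GASA10 passed in none of the 17 comparisons. It stood at 4.18, 3.09 and 6.32 TPM in AXR3-1 at 180 min, where its log2 fold change from the mock was largest in size (−0.46, SE 0.35, adjusted p = 0.412). With 37 to 79 read pairs in a group of 3 libraries, and an SD of up to 39.1% of the mean, a change of the size seen in GASA4 was not detectable for GASA10.

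The transcripts behind a gene total differed. GASA4 has a longer form of 321 bases and a shorter one of 252 bases whose coding sequence lies wholly within the longer. The shorter form took 11.8% to 33.9% of the TPM of GASA4, and both ends of that range were single libraries (AXR3-1 180 min C and Col-0 mock B). Read pairs from the shared sequence fit both forms, so the split between them is an estimate by Salmon. By that estimate the longer form in AXR3-1 stood at 665, 630 and 617 TPM in the mock. It fell to 448, 457 and 529 TPM at 180 min, with no overlap, where the shorter form took 33.4%, 31.3% and 11.8%. GASA14 has a form of 672 bases without any of the cysteine codons, which took 0% to 33.7% of its TPM. It was at 0 in all 3 libraries of Col-0 at 180 min and reached its highest share in Col-0 mock B, beside 0% and 3.17% in mock A and C. Most of its coding sequence lies in the longer form as well, so this split is also an estimate by Salmon. For GASA1 the longer form held over 99% of the TPM on average in each group.

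The rest of the family, 6 genes, was mostly silent in these roots. AT2G14900, a Gibberellin-regulated family protein in RefSeq, was the only one tested. It stood at 72.5, 93.3 and 81.5 TPM in the ΔMP mock, 76.3, 71.0 and 90.2 TPM at 90 min and 50.0, 57.1 and 54.0 TPM at 180 min. The 180 min libraries lay below all others of the line, and AT2G14900 fell by 0.59 (SE 0.11, adjusted p = 0.000139). In Col-0 at 180 min its log2 fold change was −0.001. The ΔMP response minus that of Col-0 was −0.59 (SE 0.16, adjusted p = 0.0123, edgeR's quasi-likelihood test). In AXR3-1 at 180 min the change was 0.07 (SE 0.11, adjusted p = 0.717, same test). GASA2 and GASA3, known from seeds, were read in 1 library only, AXR3-1 at 90 min A, with 2 and 40 read pairs. AT2G39540 and AT2G18420 had 4 and 7 read pairs over all libraries, and AT1G10588 had none.

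Other genes of the GA pathway, 23 in all, gave the setting of these changes. Of the 20 tested, 7 rose and 1 fell in ΔMP at 180 min (median log2 fold change 0.24, all genes 0.014), where 24.8% of all genes passed. In AXR3-1 4 rose and 5 fell (0.09, all genes −0.001), where 19.5% passed, and in Col-0 2 rose and 1 fell (0.04, all genes 0.003), where 6.31% passed. GA2OX8, a deactivating enzyme, rose in ΔMP from 1.10 to 29.0 TPM (log2 fold change 4.69, SE 0.13, adjusted p = 4.47e-23) and fell from 0.55 to 0.12 TPM in AXR3-1 (−2.10, SE 0.41, adjusted p = 0.000211). GA2OX8 in Col-0 stood at 0.456, 0.303 and 0.298 CPM (depth-scaled counts) in the mock and at 0.942, 0.971 and 1.007 CPM at 90 min. At 180 min in Col-0 it stood at 0.531, 0.979 and 0.713 CPM, also above that mock. The ΔMP mock held 1.312, 1.201 and 1.303 CPM, above each Col-0 mock library. In AXR3-1 at 180 min GA2OX8 stood at 0.043, 0.212 and 0.159 CPM, so its fall there rests on few read pairs. GA20OX2, a synthesis gene, rose from 4.09 to 12.1 TPM in ΔMP and from 3.38 to 4.69 TPM in AXR3-1, and it also rose in Col-0, from 3.44 to 5.11 TPM (adjusted p = 0.0409). GA2OX6, another deactivating enzyme, rose in ΔMP from 22.9 to 34.2 TPM (log2 fold change 0.61, adjusted p = 3.59e-08) and fell from 20.7 to 12.1 TPM in AXR3-1 (−0.72, adjusted p = 1.7e-08), and it fell in Col-0 as well (−0.46, adjusted p = 0.000275). Of the 4 tested deactivating genes 3 rose and 1 fell in ΔMP, while 1 rose and 3 fell in AXR3-1. GA2OX2 went the other way, falling in ΔMP and rising in AXR3-1. In the AXR3-1 response minus that of Col-0 at 180 min, 1 of the 4 rose and 1 fell. Both differed by at least 1 on the log2 scale, and GA2OX6 did not pass. Of the 5 DELLA genes only RGL3 passed in either line, and it rose in both. Of the receptors GID1A, GID1B and GID1C, GID1B alone passed, in AXR3-1, from 29.4 to 35.1 TPM (log2 fold change 0.29, SE 0.08, adjusted p = 0.00701).

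**Figure D5:**
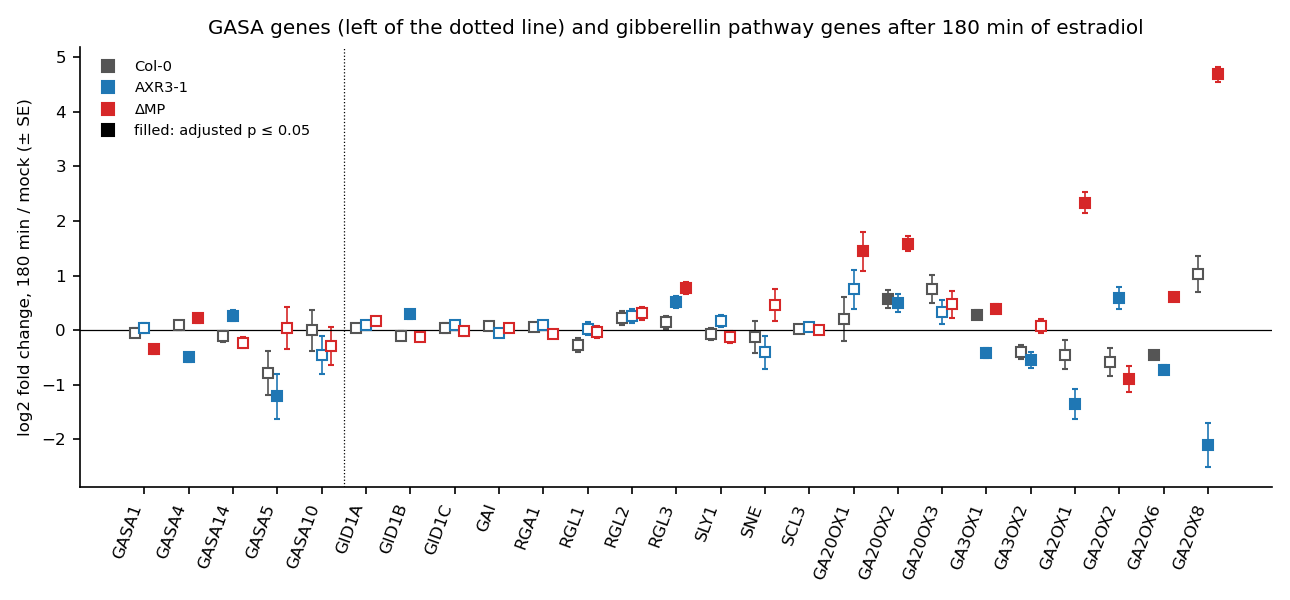
Log2 fold change (± SE) at 180 min of estradiol over mock for the 5 tested GASA genes and the 20 tested GA pathway genes in Col-0 (gray), AXR3-1 (blue) and ΔMP (red); filled symbols have an adjusted p of at most 0.05. GA2OX8 reaches 4.69 in ΔMP, while no GASA gene exceeds 1.21 in size.

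GASA5 was the only member whose 9 group means spanned at least 1 on the log2(TPM + 0.5) scale (span 1.44). Among 6786 tested genes with a symbol and a mean of at least 5 TPM, the closest to it in centred group means were GBF3, LBO1 and HAT9, with root mean square differences of 0.17, 0.17 and 0.18 over the 9 groups. GBF3 is a bZIP transcription factor and HAT9 a homeodomain-leucine zipper factor. The group means of GASA5 rest on 26 to 76 read pairs, so the order of these neighbors is loose.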

How the data were processed

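RNA of 27 libraries had been sequenced in read pairs. The authors quantified reads with Salmon 1.3.0, with bias correction, against the coding sequences of TAIR10, which hold no UTRs. For read filtering the authors name Rcorrector and Trim Galore, while the submitters' processing notes name Trimmomatic. Which was used is not settled. The deposited estimated counts are read pairs per transcript, not corrected for depth, and the deposited TPM, from the same runs, take account of effective length and have 1 total in every library. Whether replicates were separate cultures is not given by the titles, so p-values measure the spread between these libraries.

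Gene sums of the estimated counts, rounded to whole numbers, entered the quasi-likelihood test of edgeR 4.0.16 (R 4.3.3) with TMM scaling, over all 27 libraries with 1 mean per group and 19530 genes kept by filterByExpr, with Benjamini-Hochberg adjustment over all genes tested. A gene passed at an adjusted p of at most 0.05. The script was tested on simulated data. The members and gene lists were chosen with earlier results of these data known, so nothing here is independent support for them. All 9 members were named, with the rest of the family, and examples of the pathway list; genes most like a member were sought for members spanning at least 1. The marker lists were root cap, root hair, endodermis, meristem, dividing cells, vascular and green tissue. Coordinates are those of TAIR10.1, 1-based; 26645 of the 27313 gene identifiers had an entry there. Alternatives were DESeq2 1.42.0, no TMM, no filter, only the libraries compared, limma 3.58.1 on log2(TPM + 0.5) or log2(TPM + 1), the letter as a block, each library left out, CPM in place of TPM and, chosen after seeing the data, an offset for effective length.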

Additional observations from a re-analysis of the deposited data

Results flagged for a closer look

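The responses of 3 GASA genes differed between lines by a test of the difference itself (interaction term in edgeR's quasi-likelihood test, 3 libraries in each group). GASA4 differed by −0.589 on the log2 scale between AXR3-1 and Col-0 at 180 min, and between ΔMP and AXR3-1 by 0.445 at 90 min and 0.718 at 180 min. GASA1 differed by −0.393 and GASA14 by −0.501 between ΔMP and AXR3-1 at 180 min. The comparisons of one line share its mock libraries. Their causes were not tested.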

How the results depend on the processing

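Of 15 member values that passed, 6 passed under every alternative and every library left out: GASA1 in ΔMP at 180 min, GASA4 in AXR3-1 at 180 min, relative to Col-0 and between ΔMP and AXR3-1 at 180 min, and GASA14 in ΔMP from 90 to 180 min and between ΔMP and AXR3-1 at 180 min. The other 9 were lost under at least 1, and of 70 values that did not pass 8 passed under at least 1. No value that passed changed sign under these settings. The number of GASA genes that passed in ΔMP at 90 min was 2 in a fit of only the libraries compared and 1 with the effective length offset, in place of 0. In ΔMP at 180 min it was 1 without TMM in place of 2; without the filter it was also 2, but with GASA14 in place of GASA4, and it was 3, with GASA14 added, with only the libraries compared and with the offset. In AXR3-1 at 90 min it was 1 without the filter and 1 with only the libraries compared, in place of 0. From 90 to 180 min of AXR3-1 it was 1 with either limma fit and with the offset, in place of 2. For ΔMP relative to Col-0 at 180 min it was 1 with either limma fit and the offset, in place of 0. For ΔMP relative to AXR3-1 at 90 min it was 2 with only the libraries compared, in place of 1. For the ΔMP mock it was 2 with either limma fit and the offset, in place of 1. Leaving out each library gave 1 to 2 genes for ΔMP at 180 min, ΔMP and AXR3-1 from 90 to 180 min and AXR3-1 relative to Col-0 at 180 min, 1 to 3 for AXR3-1 at 180 min, 2 to 3 for ΔMP relative to AXR3-1 at 180 min, and 0 to 1 for AXR3-1 at 90 min, ΔMP relative to Col-0 at 180 min, ΔMP relative to AXR3-1 at 90 min and the ΔMP mock.

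With the letter as a replicate block no count changed in any of the 17 comparisons, for example 2 in ΔMP and 3 in AXR3-1 at 180 min. The letters did not pair the libraries: deviations from the group means of same-letter libraries correlated at −0.175 to 0.203 (median 0.005, 108 pairs), against −0.189 to 0.191 for other letters (216 pairs).

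With CPM in place of TPM, the mean level relative to the Col-0 mock moved by more than 1 SD for GASA1 (1.14 to 1.07 in AXR3-1 at 90 min, 1.04 to 1.11 in its mock) and for 5 other group means. Low counts limit GASA5 and GASA10, and GASA6, GASA9, GASA12 and GASA13 could not be tested. The causes of the other differences between settings were not tested.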
